A study of Mus musculus with 3 samples.

Results

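The 7 genes of a myeloid and leukocyte marker set were examined on 3 arrays of sorted mouse pancreatic cells: Lyz2, Tyrobp, Fcer1g, Ptprc, Csf1r, Cd68 and Cd52. They were taken by symbol from the 19938 genes with a probe set annotated to 1 gene, and each of the 7 had 1 such probe set. The beta cell array came from 3 pooled Fbw7 +/+; MIP-GFP mice, whose beta cells carry green fluorescent protein under the mouse insulin promoter, without Cre and without tamoxifen. The Fbw7-deleted ductal array came from 6 pooled mice with both Fbw7 alleles floxed (F/F), and the wild-type ductal array from 6 pooled Fbw7 +/+ mice. Both ductal groups carried Ck19-CreERT and the reporter R26-LSL-YFP, so that a Cre driven by cytokeratin 19 regulatory sequence switched on yellow fluorescent protein after tamoxifen, given for 5 days with sampling 7 days after the last dose. All mice were C57BL/6 and over 6 weeks old, and 30000 cells were sorted for each array. Beta and ductal arrays therefore differ in cell type, reporter, Cre and tamoxifen together, and these cannot be told apart.

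Macrophages reside in pancreatic islets and in the tissue around ducts, and leukocyte genes are low or silent in epithelial and endocrine cells. Their surface receptors often signal through small adaptors such as the products of Tyrobp and Fcer1g, which carry an activation motif that recruits the kinase Syk, while the phosphatase encoded by Ptprc sets the activity of Src-family kinases upstream. Survival of most tissue macrophages depends on the receptor encoded by Csf1r, which binds the products of Csf1 and Il34.

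Transcription of many myeloid genes depends on PU.1, the factor encoded by Spi1, which binds purine-rich sequences around GGAA. Promoter windows were sought in the RefSeq promoter table (GRCm38.p6), with the entries of a whole chromosome left out. A window directly before the annotated gene was found for 3 members. A member without a window is not shown to lack an entry. These 3 are shown because no other member had such a window, and they were not picked by level. The 250 bases before each start are printed 5′ to 3′, and capitals mark GAGGAA or AGGAAG on either strand (as TTCCTC or CTTCCT on the reverse). The letters shared by these overlapping motifs can be counted in both, and AGGAAG was added after the windows had been read.
Lyz2, chr10:117282273-117282522, minus strand: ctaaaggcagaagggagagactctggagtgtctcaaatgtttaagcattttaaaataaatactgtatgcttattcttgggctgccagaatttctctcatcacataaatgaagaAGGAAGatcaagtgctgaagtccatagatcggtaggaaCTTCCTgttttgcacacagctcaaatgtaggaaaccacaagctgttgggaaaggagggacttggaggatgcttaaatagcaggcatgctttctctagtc
Fcer1g, chr1:171234350-171234599, minus strand: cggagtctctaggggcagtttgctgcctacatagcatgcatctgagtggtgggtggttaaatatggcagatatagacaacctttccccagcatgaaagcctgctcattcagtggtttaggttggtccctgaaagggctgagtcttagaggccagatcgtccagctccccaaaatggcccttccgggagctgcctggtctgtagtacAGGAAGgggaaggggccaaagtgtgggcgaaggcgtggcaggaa
Cd68, chr11:69666171-69666420, minus strand: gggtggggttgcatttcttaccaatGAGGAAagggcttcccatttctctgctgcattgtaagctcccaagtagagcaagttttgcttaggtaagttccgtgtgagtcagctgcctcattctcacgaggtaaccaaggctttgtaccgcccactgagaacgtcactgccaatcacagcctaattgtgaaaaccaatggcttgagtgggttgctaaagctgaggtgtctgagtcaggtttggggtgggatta
AGGAAG was found in the Lyz2 window 2 times, starting 137 bases (forward) and 99 bases (reverse) before the start, and in the Fcer1g window once, 44 bases before it. The Cd68 window held GAGGAA at 225 bases before the start and no AGGAAG. Among 32851 promoter windows of this length, 23.3% held GAGGAA and 29.5% held AGGAAG, so these matches describe the sequences and no more.

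Each array is 1 pool with no replicate, so no difference below has an error estimate or a p-value. Values are log2 intensities that the authors had normalized, and differences are differences of those values. A level floor was set for each array at its median over single-gene probe sets (5.30 in beta cells, 5.24 in deleted and 5.23 in wild-type ductal cells). No detection calls came with the values, so the floor stands in for background: a level below it is not shown to be absent, and each "at least" fold depends on it. Where 1 of 2 levels was below its floor, the fold is given against the floor with "at least". The sorted populations showed their labelled markers in part. Ins2 read 11.04 and Iapp 9.86 on the beta cell array, but Pdx1 (5.14), G6pc2 (4.83), Pcsk1 (4.73) and Glp1r (5.20) were below the floor there. Krt19 read 9.53 in deleted and 9.13 in wild-type ductal cells, while Cftr (5.13 and 4.95) was below the floor in both. Of 11 duct markers, 2 (Cdh1 and Muc1) were higher on the beta cell array than on the wild-type ductal array, 6 were lower and 3 (Cftr, Epcam and Prom1) identical, and all 11 read above the wild-type ductal array in deleted ductal cells. Fbxw7, the targeted gene, read 5.71 in deleted and 6.32 in wild-type ductal cells. Where its probes lie against the floxed exons is not given in these sources, and the levels are no check of the deletion.

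Myeloid and leukocyte markers were higher on the beta cell array than on the wild-type ductal array. Of the 7 members, 5 were higher by 2-fold or more and 0 were lower by as much, where 7.41% of all 19938 genes were 2-fold higher and 14.5% were 2-fold lower. The median difference of the members was log2 2.16, beside 0 over all genes. With low levels raised to the floor, 3 members were at least 2-fold higher and the median was 0.78. Under the same treatment 327 of all 19938 genes were at least 2-fold higher. All 7 members were above the floor in beta cells, and 5 of them were above it on that array alone, so they could only differ upward. Of 1373 genes that were likewise below the floor in wild-type ductal cells and above it in beta cells, 36.7% were at least 2-fold higher, with a median difference of 0.84. The summed level of the 7 genes was log2 9.51 in beta cells, 7.66 in deleted and 7.66 in wild-type ductal cells. In pooled RNA, fewer cells of a type and less RNA per cell cannot be told apart.

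**Figure D1:**
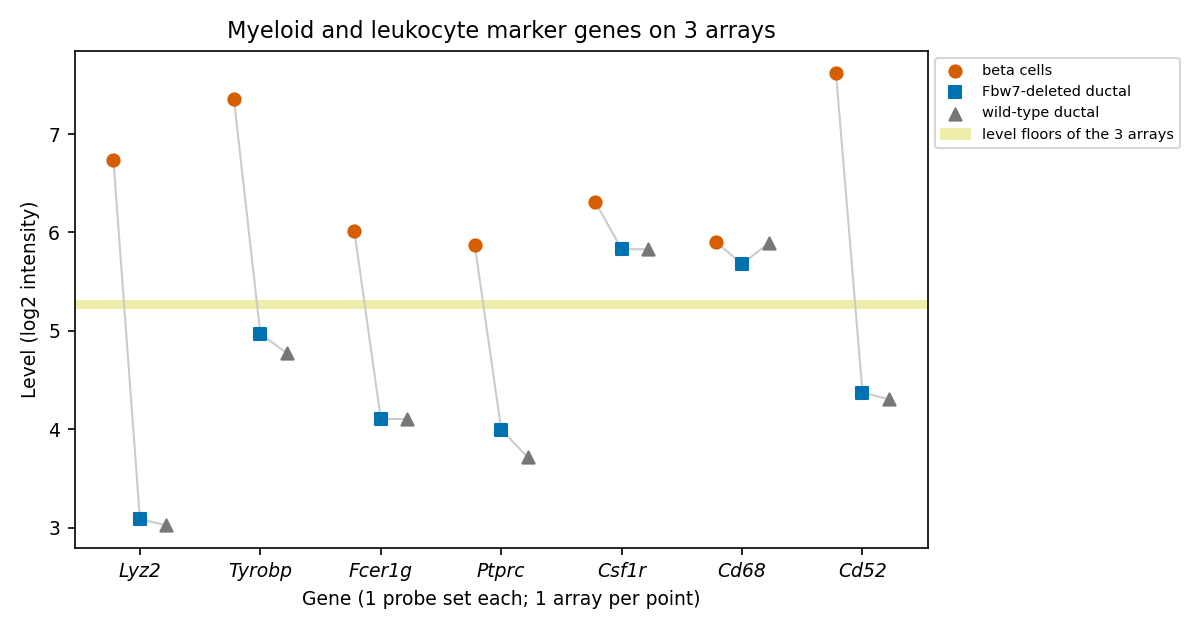
Level (log2 intensity, vertical axis) of each of the 7 members (horizontal axis) on the beta cell array (circles), the Fbw7-deleted ductal array (squares) and the wild-type ductal array (triangles), 1 array per point, with the band of the 3 level floors. Lyz2, Tyrobp, Fcer1g, Ptprc and Cd52 sit above the band in beta cells and below it in both ductal groups; Csf1r and Cd68 sit above it on all 3 arrays.

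Lyz2 and Cd52 encode an effector and a surface protein. Lyz2, the lysozyme of macrophages and granulocytes, read 6.73 in beta cells, 3.08 in deleted and 3.02 in wild-type ductal cells. Against wild-type ductal cells the measured difference was 3.71, and against deleted ductal cells it was 3.65, or at least 2.81-fold with the floor. Cd52, a small lipid-anchored glycoprotein of lymphocytes and monocytes, read 7.62 in beta cells, 4.37 in deleted and 4.30 in wild-type ductal cells. Its differences were 3.31 against wild-type and 3.25 against deleted ductal cells and, with the floor, it was at least 5.20-fold higher on the beta cell array than on the deleted one. For both genes the beta cell array was the high one, and the ductal arrays lay within 0.07 of each other, below the floor, so the exact size of these differences is not measured.

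The signalling adaptors were also highest in beta cells. Tyrobp, the adaptor of activating receptors such as Trem2, read 7.36 in beta cells, 4.97 in deleted and 4.77 in wild-type ductal cells. It was at least 4.37-fold higher on the beta cell array than on the wild-type ductal array and at least 4.35-fold higher than on the deleted one. The corresponding bounds against the wild-type ductal array were at least 5.22-fold for Cd52 and at least 2.82-fold for Lyz2, so Lyz2 leads the members by deposited difference but not by bound. Fcer1g, the shared gamma chain of Fc receptors, read 6.02 in beta cells and exactly 4.10 on both ductal arrays, a difference of 1.91 and a bound of at least 1.72-fold. Ptprc, the receptor phosphatase carried by nearly all nucleated blood cells, read 5.88 in beta cells, 3.995 in deleted and 3.72 in wild-type ductal cells. Its measured difference from wild-type ductal cells was 2.16, but the bound was only at least 1.56-fold because the beta cell level lay near the floor.

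Csf1r and Cd68 were the 2 members without a 2-fold difference in any comparison. Csf1r, the macrophage growth factor receptor, read 6.31 in beta cells and 5.83 on both ductal arrays, a difference of 0.48 or 1.40-fold. Cd68, a lysosomal glycoprotein widely used to stain macrophages, read 5.91 in beta cells, 5.68 in deleted and 5.89 in wild-type ductal cells. The Cd68 difference between beta and wild-type ductal cells was 0.02, and it turned to -0.05 once each array was centred on its median. After quantile normalization this difference was 0.24 for Cd68 and 0.87 for Csf1r. Both genes were above the floor on all 3 arrays, so their differences do not depend on it.

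**Figure D2:**
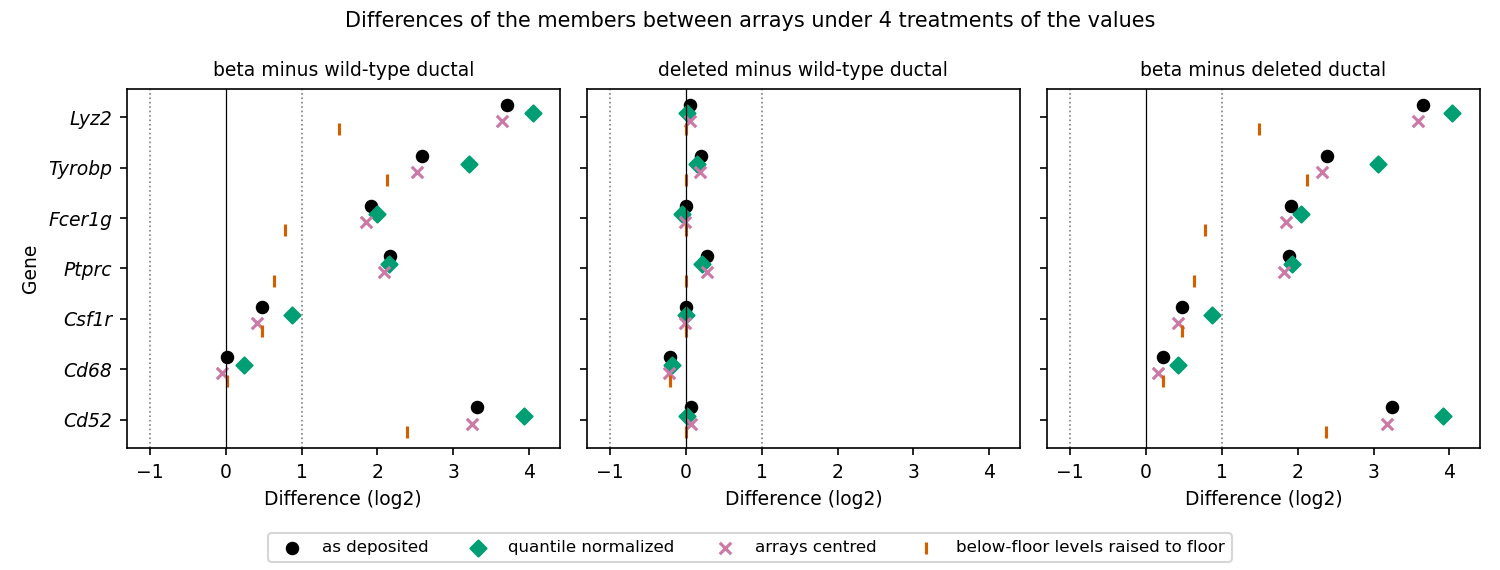
Difference in log2 level (horizontal axis) for each member (vertical axis) in 3 comparisons, as deposited, after quantile normalization, after centring of the arrays and with low levels raised to the floor; dotted lines mark 2-fold. Lyz2, Tyrobp and Cd52 stay past 2-fold in both beta cell comparisons under these 4 treatments, Fcer1g and Ptprc do so except with levels raised to the floor, and no member reaches 2-fold between the ductal arrays.

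Between Fbw7-deleted and wild-type ductal cells, 0 of 7 members were 2-fold apart in either direction. In this comparison 0.752% of all genes were 2-fold higher and 0.933% 2-fold lower (0.717% and 0.481% after quantile normalization), so a count of 0 among 7 genes is near the background. Differences of deleted minus wild-type ductal cells ran from -0.21 for Cd68 to 0.28 for Ptprc, with a median of 0.06; 4 members were higher, 1 lower, and Fcer1g and Csf1r were identical on both arrays. Exact identity of the ductal arrays was common, at 59.1% of all genes. The members other than Csf1r and Cd68 were below the floor on both ductal arrays, where values have no order. Differences there were 0.20 for Tyrobp, 0.07 for Cd52 and 0.06 for Lyz2, besides Ptprc and Fcer1g. With levels raised to the floor, the 1 difference other than 0 was that of Cd68.

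Against deleted ductal cells, beta cells again had 5 of 7 members at least 2-fold higher, where 6.05% of all genes were 2-fold higher and 12.9% 2-fold lower. Of 1302 genes below the floor in deleted ductal cells and above it in beta cells, 30.3% were at least 2-fold higher. The median over the members was 1.91. This comparison shares its beta cell array with the one above, so it adds no independent reading. The differences ran from 0.23 for Cd68 to 3.65 for Lyz2.

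Other macrophage and monocyte genes made a list of 24, of which 23 had a single-gene probe set. They were mostly higher on the beta cell array than on the wild-type ductal array: 18 were higher, 2 lower and 3 identical. Of all 19938 genes, 8999 were higher, 6349 lower and 4590 identical in that comparison. The listed genes had a median difference of 1.13. Of them, 14 were past 2-fold upward and 1 downward, where 7.41% of all genes were 2-fold higher and 14.5% 2-fold lower. The median was 0 when low levels were raised to the floor, since 12 of the 23 were below the floor on both arrays. By deposited value the list was led by Mpeg1, a pore-forming protein of phagocytes, at 2.27 (6.00 in beta cells, 3.66 in deleted and 3.72 in wild-type ductal cells), C1qb, a complement C1q chain, at 2.23 (6.28, 4.13 and 4.05 on the same arrays) and Mrc1, the mannose receptor, at 1.98 (6.35, 4.03 and 4.36). All 3 were below the floor in ductal cells, and with the floor the order changed: Ctss, a lysosomal protease gene named after its values were seen, was at least 2.73-fold higher on the beta cell array than on the wild-type one, Mrc1 at least 2.16-fold, C1qb at least 2.07-fold and Mpeg1 at least 1.70-fold. Cx3cr1, a chemokine receptor gene named in the same way, was above the floor on all 3 arrays and 2.04-fold higher in beta cells. C1qa read 5.44 in beta cells, 4.71 in deleted and 4.48 in wild-type ductal cells, at least 1.15-fold higher in the beta cell pool than in the wild-type ductal pool. Adgre1, which encodes a surface antigen used to define mouse macrophages, and the integrin gene Itgam stayed below the floor even in beta cells, at 4.62 and 4.47, although their measured differences were 1.53 and 1.26.

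Cd14 and Trem2 went the other way. Cd14, the co-receptor for bacterial lipopolysaccharide, read 5.79 in beta cells against 9.60 in deleted and 9.76 in wild-type ductal cells, 15.7-fold lower in beta cells than in the wild-type array. Trem2, a receptor that signals through the Tyrobp adaptor, read 6.51 in beta cells, 6.51 in deleted and 7.37 in wild-type ductal cells, so that beta and deleted ductal cells each lay 0.87 below the wild-type array on the log2 scale. The 3 genes identical on all arrays were Fcgr2b, Fcgr4 and Clec7a, below the floor throughout. Such identity held for 21.2% of all genes. Fcgr2b, an inhibitory Fc receptor, read 4.45. Between the ductal arrays the list had 7 genes higher in deleted cells, 4 lower and 12 identical, with 0 of 23 at least 2-fold apart.

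**Figure D3:**
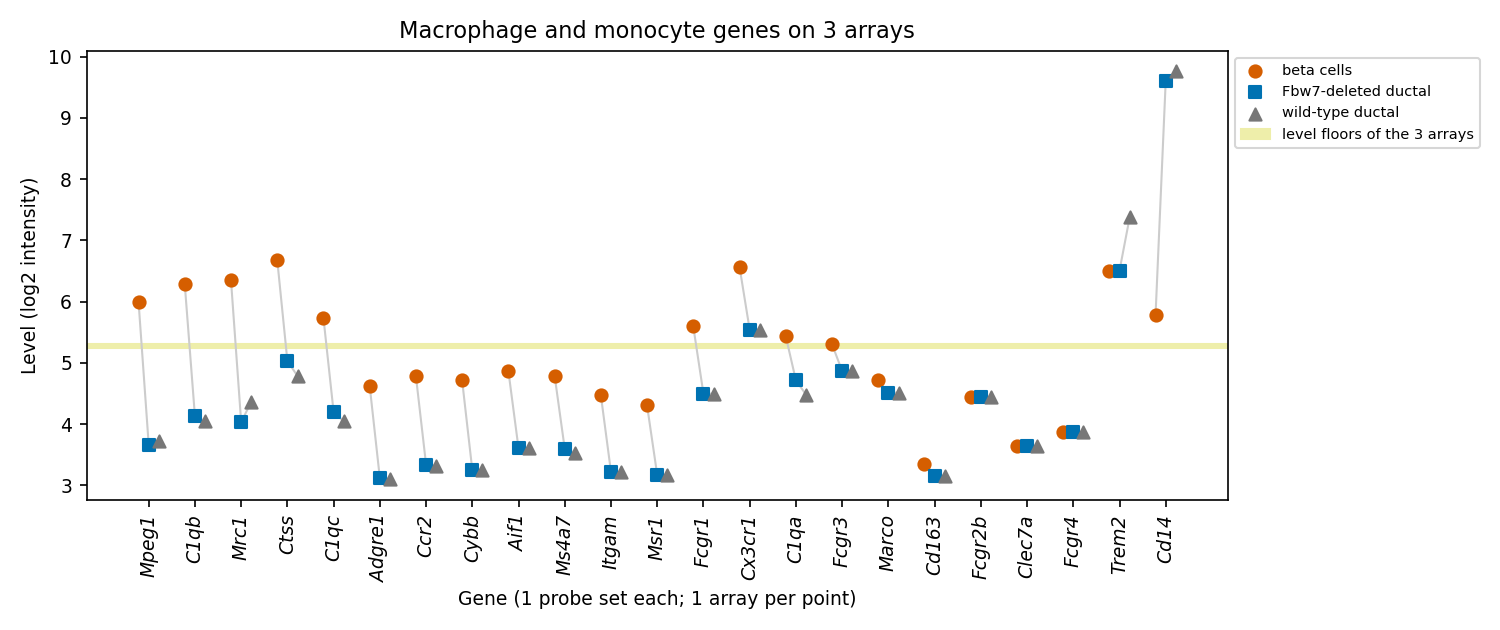
Level (log2 intensity, vertical axis) of 23 macrophage and monocyte genes (horizontal axis, sorted by beta minus wild-type ductal difference) on the beta cell (circles), Fbw7-deleted ductal (squares) and wild-type ductal (triangles) arrays, 1 array per point, with the band of the level floors. In beta cells 11 genes lie above the floor and 3 do so in each ductal group, among them Cd14 near 9.60 in deleted and 9.76 in wild-type ductal cells.

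Genes used by most leukocytes gave a median difference of 0.78 over 16 of 18 listed genes, beta against wild-type ductal array. Of these, 6 were past 2-fold upward and 1 downward, where 7.41% of all genes were 2-fold higher and 14.5% 2-fold lower. With low levels raised to the floor the counts were 4 and 1, beside 327 and 2704 of all 19938 genes. Lcp1, the actin-bundling plastin of blood cells, read 6.71 in beta cells, 4.34 in deleted and 3.79 in wild-type ductal cells, at least 2.79-fold higher in beta cells than on the wild-type array. Laptm5, a lysosomal membrane protein, read 6.66 in beta cells and 4.53 on both ductal arrays, at least 2.68-fold higher than on the wild-type array. Cd48, an adhesion molecule of lymphocytes, read 5.94 in beta cells, 3.11 in deleted and 3.15 in wild-type ductal cells. Its bound against the wild-type array was at least 1.63-fold. Arhgdib went the other way, at 6.89 in beta cells, 8.60 in deleted and 9.50 in wild-type ductal cells. At the low end of the list, Cd53 and Vav1 differed by 0.08 and 0.35 and were below the floor on all 3 arrays.

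Partners of the members in signalling had a median difference of 0.30 over 17 of 19 genes between beta and wild-type ductal cells. Of these, 4 were past 2-fold upward and 1 downward, where 7.41% of all genes were 2-fold higher and 14.5% 2-fold lower. Raising low levels to the floor gave a median of 0 and 0 genes past 2-fold upward. A floor at the 75th percentile left only Csf1 (-3.37) and Il34 (0), with a median of -1.68. That median therefore does not describe the list. Spi1, which encodes PU.1, read 5.56 in beta cells, 4.68 in deleted and 4.18 in wild-type ductal cells, at least 1.25-fold higher in beta cells than on the wild-type array. Pirb, an inhibitory immunoglobulin-like receptor, read 5.87 in beta cells, 3.95 in deleted and 4.21 in wild-type ductal cells. Btk, a kinase of B and myeloid cells, differed by 1.57 but was below the floor on all 3 arrays. Syk read 5.40 in beta cells, 5.08 in deleted and 5.25 in wild-type ductal cells, a difference of 0.14 from the wild-type array. The ligand genes of Csf1r did not share its order: Csf1 read 5.18 in beta cells against 7.71 in deleted and 8.55 in wild-type ductal cells, at least 9.47-fold lower in beta cells than on the wild-type array. Il34, the other ligand gene, read 6.19 in beta cells, 5.87 in deleted and 6.19 in wild-type ductal cells. Trem1 and Trem3 were identical on all 3 arrays and below the floor.

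Lymphocyte, dendritic cell and granulocyte lists were mostly below the floor on the beta cell array. In T and NK cell genes 1 of 16 was above it (Cd3e, a T cell receptor chain, at 5.56, against 4.82 in deleted and 4.74 in wild-type ductal cells), and in B cell genes 2 of 11 (Cd22 at 5.39 and Vpreb3 at 5.42). Cd79a, a chain of the B cell receptor, read 3.20 on all 3 arrays. Dendritic cell genes had 2 of 9 above the floor in beta cells and granulocyte and mast cell genes 1 of 14, the antimicrobial peptide gene Camp at 6.23. S100a8, a neutrophil calcium-binding protein, read 3.73 on all 3 arrays. Median differences between beta and wild-type ductal cells were 0.47 for T and NK cell genes, 0.57 for B cell genes, 0.44 for dendritic cell genes and 0.62 for granulocyte and mast cell genes. Over all 10049 genes below the floor in wild-type ductal cells the median was 0.34, and 12.7% were at least 2-fold higher. After quantile normalization the medians of these 4 lists were 0.13, 0.27, 0.07 and 0.21. That of the macrophage list was 0.90 and that of the 7 members 2.15. With levels raised to the floor, these 4 lists had 0 genes past 2-fold upward in that comparison, the members 3 and the macrophage list 4. Under that treatment 327 of all 19938 genes were past 2-fold upward.

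**Figure D4:**
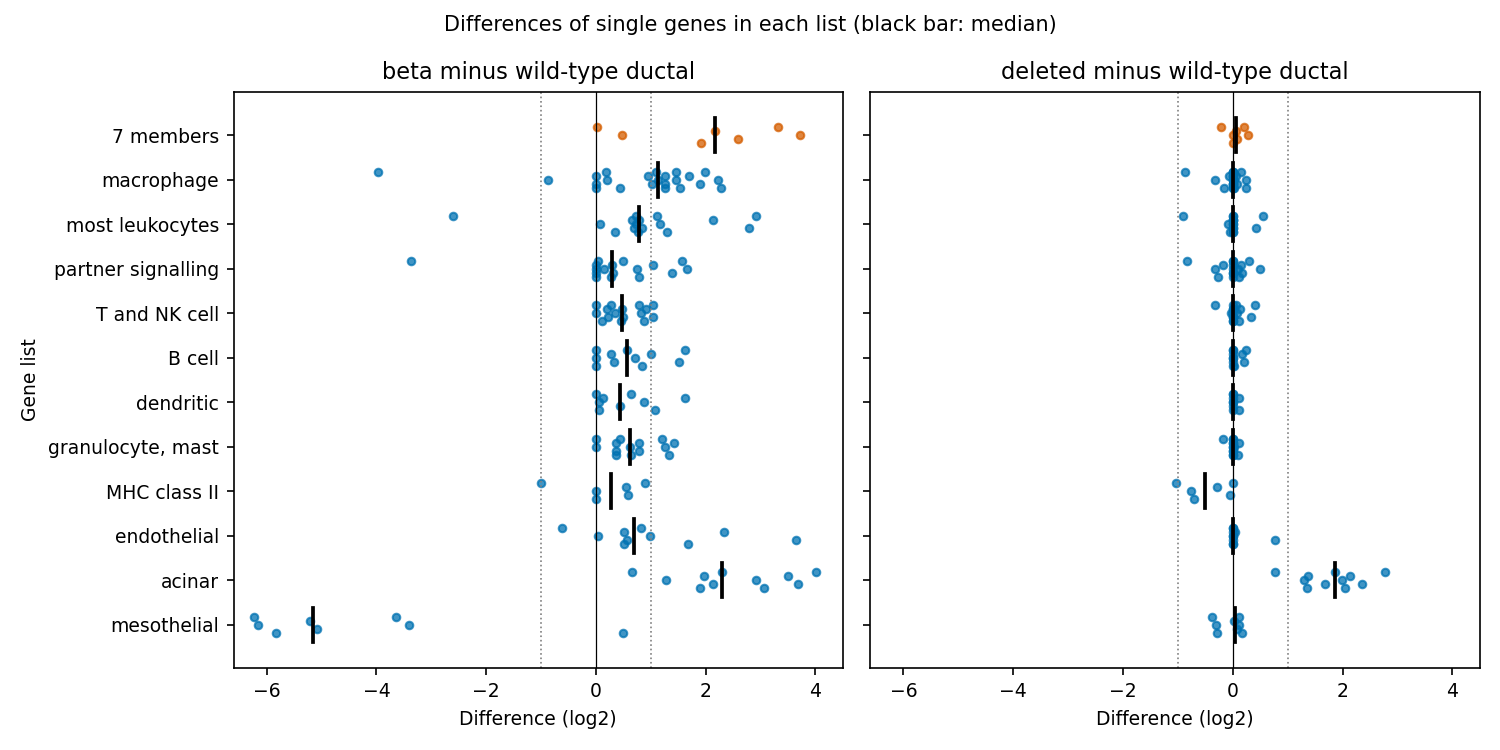
Difference in log2 level (horizontal axis) of single genes in each list (vertical axis), for beta minus wild-type ductal cells and for deleted minus wild-type ductal cells; black bars are medians and dotted lines mark 2-fold. In the beta cell comparison the median is 2.16 for the 7 members, 1.13 for macrophage genes and 0.47 for T and NK cell genes, and between the ductal arrays these medians are 0.06, 0 and 0.

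Endothelial and acinar markers were also mostly higher on the beta cell array, whereas mesothelial and mesenchymal markers were mostly lower there. The part of these cells in the result was not tested. Of 10 endothelial markers, 9 were higher on the beta cell array than on the wild-type ductal array, where 8999 of all 19938 genes were higher. The 10 markers had a median difference of 0.69. Their summed level was log2 9.59 in beta cells, 8.65 in deleted and 8.62 in wild-type ductal cells. Emcn was at least 3.44-fold, Pecam1 at least 2.83-fold and Eng at least 2.81-fold higher on the beta cell array than on the wild-type one. With low levels raised to the floor, 3 of the 10 were at least 2-fold higher, where 327 of all 19938 genes were. Esam was the 1 lower in beta cells, and Tek and Tie1 were below the floor on all 3 arrays. For acinar markers all 11 measured were higher in beta cells than in wild-type ductal cells, with a median difference of 2.30 and a summed level of 15.43 in beta cells, 15.02 in deleted and 13.64 in wild-type ductal cells. Unlike the members, acinar markers also differed between the ductal arrays. There, 10 of 11 were at least 2-fold higher in deleted cells, where 0.752% of all genes were. Of 8 mesothelial markers 7 were lower in beta cells than in wild-type ductal cells, with a summed level of 8.38 there, 13.08 in deleted and 13.12 in wild-type ductal cells. Of 11 mesenchymal markers 9 were at least 2-fold lower on the beta cell array than on the wild-type ductal array, where 14.5% of all genes were. Their median difference was -2.06, and their summed level was 11.09 in beta cells, 12.89 in deleted and 13.52 in wild-type ductal cells. Between the ductal arrays 10 of these 11 were lower in deleted cells, 4 of them by 2-fold, where 0.933% of all genes were 2-fold lower. The spread of values was narrower on the beta cell array (SD over all probe sets 1.57, against 1.97 in deleted and 2.02 in wild-type ductal cells). The 10049 genes below the floor in wild-type ductal cells had a median difference of 0.34 in beta cells, beside 0 over all genes. The part of the spread in the differences of low genes was not tested beyond such values and the quantile-normalized ones.

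The genes whose 3-array profile came nearest to the mean profile of the members were sought among 10656 genes, as a description over 3 points. They were Pnisr, Ero1b, Odaph, Cacng1, Rybp and Rnu7, at Euclidean distances from 0.04 to 0.11 on the centred log2 scale. None of these 6 is in a leukocyte list. Pnisr, a nuclear protein gene, read 9.74 in beta cells and 7.76 on both ductal arrays. Ero1b, an oxidase of the endoplasmic reticulum that is abundant in beta cells, read 7.21 in beta cells and 5.29 on both ductal arrays.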

How the data were processed

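RNA (18 ng) from 30000 sorted cells for each array was amplified with NuGEN kits and labelled with biotin, per the labels' protocols. The authors deposited log2 intensities for 35556 probe sets on 3 arrays, made with RMA per the submitters' processing notes. The RMA version and the set of arrays normalized jointly are not given in the sources read. The platform annotation named 1 gene for 21789 probe sets, several for 1621 and none for 12146. By gene ID, 21698 of those with 1 gene matched RefSeq (GRCm38.p6). For 999 genes with several probe sets, the one of highest mean level was taken. The members and gene lists were chosen with earlier results of these data known. Genes at least 2-fold apart were counted over all genes and over genes whose higher level was above the floor. With 1 array for each group no test was made, and the number of arrays limits the precision.

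Named genes are the members, Fbxw7, up to 6 of each other list (the 3 largest positive and the 3 largest negative differences of beta minus wild-type ductal cells), 12 genes fixed by name (Spi1, Csf1, Il34, Syk, Adgre1, C1qa, Cd14, Itgam, Cd3e, Cd79a, S100a8 and Cd74) and 6 genes of nearest profile. Cell type markers below the floor, other duct markers, Ctss, Cx3cr1, Krt19, Vpreb3 and Camp were named after their values were seen. The alternatives were other floors, 1.5-fold and 4-fold thresholds, quantile normalization, centring and the mean of probe sets. Steps were tested on simulated data. Python 3.11.15, numpy 2.4.6, pandas 2.3.3, scipy 1.17.1 and matplotlib 3.10.9 were used.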

Additional observations from a re-analysis of the deposited data

How the results depend on the processing

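No paired analysis was possible because each group is 1 array. The count of members 2-fold higher on the beta cell array than on the wild-type ductal array was 5, and it was 3 with the floor at the 75th percentile or with low levels raised to the floor. The median of 2.16 became 2.95 with the 75th percentile floor and 0.78 with low levels raised. Against deleted ductal cells the count of 5 became 3 under each of these and at 4-fold, and the median of 1.91 became 2.82 and 0.78. These moves follow from the construction, since 5 members lay below the floor in both ductal groups and the higher floor leaves fewer genes. Counts of 0 between the ductal arrays stayed at 0 under the 8 alternatives, but several of these could not have changed them. There, no member passed the 75th percentile floor, and raising low levels set every member difference except that of Cd68 to 0. Leaving out the floor or asking for 4-fold could not raise the counts. Using the mean of probe sets changes no member, because each has 1.

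Over all genes above the floor, 710 were 2-fold higher on the beta cell array than on the wild-type ductal one; the count was 1478 without a floor, 394 with the 75th percentile floor, 327 with levels raised, 1558 at 1.5-fold, 102 at 4-fold and 1192 after quantile normalization. Those 2-fold lower numbered 2875, and 1151 at 4-fold. Against deleted ductal cells the 569 higher became 1207, 318, 258, 1439, 63 and 1051 in the same order, and the 2552 lower became 915 at 4-fold. Between the ductal arrays 144 higher became 282 at 1.5-fold and 41 at 4-fold, and 182 lower became 728, 15 and, after quantile normalization, 92. With 5 members below the floor in ductal cells, the size of their differences rests on the floor chosen.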

Other observations

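Class II antigen presentation genes, which macrophages, dendritic cells and B cells use to show peptides to T cells, differed between the ductal arrays. There, 5 of the 6 measured genes were lower in deleted cells and Ciita, the regulator of the class, was identical, with a median difference of -0.50. Of all 19938 genes, 4179 were lower in that comparison. H2-DMa was among the 5 by only -0.05. Both H2-DMa and Ciita were below the floor on both ductal arrays, where values have no order. H2-Ab1 read 8.21 in beta cells, 6.64 in deleted and 7.67 in wild-type ductal cells, and H2-Eb1 read 8.13, 6.51 and 7.22 on the same arrays. Cd74, the invariant chain gene, read 7.53 in beta cells, 7.77 in deleted and 8.53 in wild-type ductal cells. H2-Ab1 was the 1 gene at least 2-fold apart between the ductal arrays, where 0.933% of all genes were 2-fold lower; its difference was -1.03, and -0.80 after quantile normalization. In beta against wild-type ductal cells 3 genes of this list were higher, 1 (Cd74) was lower and 2 were identical, with 0 past 2-fold as deposited. After quantile normalization H2-Aa, H2-Ab1 and H2-Eb1 were past 2-fold upward in beta cells against the wild-type ductal array, by 1.06, 1.63 and 1.92, and the Cd74 difference turned positive, to 0.17. Against deleted ductal cells H2-Ab1 and H2-Eb1 were higher in beta cells by 1.57 and 1.61 as deposited.

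Of the red cell genes, Slc4a1, an anion exchanger, read 6.16 in beta cells, 5.32 in deleted and 5.08 in wild-type ductal cells, and Alas2 read 4.96 on all 3 arrays.

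Some differences recur exactly in these values, within a tolerance of 1e-05. The Fcer1g difference between beta and wild-type ductal cells was shared by 2 probe sets, Fcer1g itself and that of Odaph, which is among the genes of nearest profile. The difference of Tyrobp between the ductal arrays was shared by 10 probe sets and that of Lyz2 by 3. The differences of Lyz2, Tyrobp, Ptprc, Csf1r and Cd52 between beta and wild-type ductal cells each occurred on 1 probe set.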
